A study of Mus musculus with 10 samples.

Results

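The genes described here build the centrosome and augmin, and they were taken by symbol: every row of the deposited expression table that begins with Cep or Haus followed by a digit, and Cntrob, Cntln, Pcnt, Pcm1, Ninl, Sass6 and Plk4. The rule found 52 of the 15507 rows, of which 37 were Cep genes, 8 Haus genes and 7 the others named. Tubgcp genes, which encode subunits of the gamma-tubulin ring, were not members. The rule used no expression value. Cep83os, a non-coding RNA that starts next to Cep83, was a member by its symbol alone. RNA-Seq was done on germ cells of 5 wild type (WT) mice and 5 knock-in (KI) mice, 1 library per mouse, all aged 45 days. KI mice were homozygous for a human GRTH gene (GRTH is DDX25, a testicular RNA helicase regulated by gonadotropin) with the R242H mutation, and WT mice carried the mouse gene. Testes of both genotypes were dispersed with collagenase and trypsin and strained, so that each library holds spermatogonia, spermatocytes and spermatids together. The mutation is carried by every cell of the KI mouse, so these libraries do not separate a change within germ cells from a change elsewhere in the animal.

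A centrosome is a pair of centrioles inside a layer of pericentriolar material, from which microtubules grow. PLK4 and the CEP proteins around it decide where a new centriole forms and how long it grows, distal appendage proteins such as CEP83 and CEP164 attach the older centriole to the membrane so that it can template an axoneme, and pericentrin scaffolds the outer material. Augmin, the complex of the HAUS proteins, recruits gamma-tubulin to existing microtubules so that new ones branch from them, a step that dividing cells use to fill the spindle. In spermatids the centrioles template the sperm tail and then anchor it to the nucleus.

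Among members called lower in KI below, promoter sequence was at hand for Cep85l, Cep112 and Cep57l1 (Cep295nl had no entry), and it is shown with the windows of Haus2 and Cep83 because each of these shares its window with the start of a neighbouring gene on the other strand. Each window runs from 250 bases before to 50 after a RefSeq start (GRCm38.p6), written 5′ to 3′ on the strand of the gene. Capitals mark the letters of TAACNG (a MYB motif) or GTTGCC (part of the X-box bound by RFX factors) on either strand, and the searches also included TGACGTCA (the cAMP response element) and TTTCCCGC (an E2F motif).
Cep85l, chr10:53379834-53380133, minus strand: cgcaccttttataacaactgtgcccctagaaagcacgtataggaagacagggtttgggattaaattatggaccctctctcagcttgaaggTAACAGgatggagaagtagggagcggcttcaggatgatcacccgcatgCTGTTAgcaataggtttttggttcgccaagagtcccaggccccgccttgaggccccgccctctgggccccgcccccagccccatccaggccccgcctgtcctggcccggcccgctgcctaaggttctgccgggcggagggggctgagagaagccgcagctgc
Cep112, chr11:108425016-108425315, plus strand: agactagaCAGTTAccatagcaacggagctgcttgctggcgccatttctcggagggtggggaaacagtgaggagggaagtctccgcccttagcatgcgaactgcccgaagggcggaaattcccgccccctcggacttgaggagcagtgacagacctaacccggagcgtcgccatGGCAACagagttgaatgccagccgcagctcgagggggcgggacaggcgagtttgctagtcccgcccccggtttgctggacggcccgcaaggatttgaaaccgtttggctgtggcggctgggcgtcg
Cep57l1, chr10:41809819-41810118, minus strand: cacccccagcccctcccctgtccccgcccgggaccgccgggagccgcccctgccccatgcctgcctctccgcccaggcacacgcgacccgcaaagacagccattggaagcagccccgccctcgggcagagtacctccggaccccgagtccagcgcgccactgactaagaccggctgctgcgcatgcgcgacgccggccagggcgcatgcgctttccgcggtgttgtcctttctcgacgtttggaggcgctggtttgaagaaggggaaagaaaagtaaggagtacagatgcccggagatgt
Haus2, chr2:120609132-120609431, plus strand: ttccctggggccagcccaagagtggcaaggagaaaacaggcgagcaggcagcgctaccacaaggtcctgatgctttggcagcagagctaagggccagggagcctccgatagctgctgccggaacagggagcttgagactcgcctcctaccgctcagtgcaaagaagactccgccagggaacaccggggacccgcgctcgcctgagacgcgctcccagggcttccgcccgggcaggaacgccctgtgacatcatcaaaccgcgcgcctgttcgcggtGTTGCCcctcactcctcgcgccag
Cep83, chr10:94688540-94688839, plus strand: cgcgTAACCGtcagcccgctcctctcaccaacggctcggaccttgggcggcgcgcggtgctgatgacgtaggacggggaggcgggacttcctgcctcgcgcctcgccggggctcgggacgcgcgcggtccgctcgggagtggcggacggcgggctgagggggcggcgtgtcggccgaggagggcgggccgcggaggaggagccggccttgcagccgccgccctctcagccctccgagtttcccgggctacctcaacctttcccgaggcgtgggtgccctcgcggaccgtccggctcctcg
The Cep85l window held TAACNG letters starting 160 and 112 bases before the start site, the Cep112 window held TAACNG near its 5′ end and GTTGCC 76 bases before the start, and the Cep57l1 window held none of the 4 motifs. In all, 43 of the 52 members had an entry, with 51 windows. TAACNG was found in 13 of these windows (25.5%) and in 23.3% of the 32851 windows of all genes. GTTGCC was found in 12 (23.5%) against 12.5%, TGACGTCA in 3 (5.88%) against 1.79%, and TTTCCCGC in 2 (3.92%) against 1.07%. Windows of 1 gene can overlap and so count the same letters more than once. These matches are descriptions of letters and were not tested.

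Dividing the deposited normalized counts by the value of 1 read returned whole reads, and these summed per library to between 13323024 and 16422347 for WT mice (median 15203687) and to between 12722086 and 15500582 for KI mice (median 15182116). Where a gene has no read, counting error allows a level worth up to 3 reads, between 2.61 and 3.62 normalized counts across these libraries, and errors of other kinds are not covered. The lowest member value in any library was 66.2 (Haus8 in WT mouse 4), so that every member was measured in every mouse. The targeted gene was examined first. Ddx25, the mouse gene of GRTH, had normalized counts of 7615, 7782, 5198, 11101 and 9458 in WT mice 1 to 5 and of 146, 194, 161, 2.88 and 1.84 in KI mice 1 to 5. All KI mice were below all WT mice. Reads were aligned to the mouse genome, so RNA of the human gene in KI mice may go uncounted here. These values are of the mouse gene and do not measure all GRTH RNA in KI mice. On the log2 scale Ddx25 fell by 7.84 (SE 1.03, limma adjusted p = 5.63e-05), a size that for KI mice 4 and 5 depends on the pseudocount because their values came from at most 3 reads.

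Libraries 1 to 3 and libraries 4 and 5 of both genotypes stood apart in the read quality of the study's alignment summary and on the second principal component of these data. Each set held both genotypes, so the main results are given for both sets as well. RNA of cell type markers also differed between the genotypes. Of 7 markers of late spermatids, the cells that condense their nuclei, all 7 were called lower in KI, with a median log2 fold change of -2.27. Their summed normalized count was 324823, 363649, 391197, 221399 and 213461 in WT mice 1 to 5 and 56782, 64141, 62924, 47970 and 31938 in KI mice 1 to 5, and Prm2 was the most abundant. The WT sum was lower in mice 4 and 5 than in mice 1 to 3. Round spermatid markers were lower in 3 of 7 by adjusted p with 0 called by limma, edgeR or DESeq2 (unadjusted p under 0.05 in 3, all lower), with a median of -0.41 and summed counts of 32635 to 36657 in WT and 22640 to 33473 in KI (most abundant, Actl7b). Spermatocyte markers had a median of -0.05, and 1 of 8 was higher and 1 lower by adjusted p, with summed counts of 16584 to 23804 in WT and 15357 to 20148 in KI (most abundant, Piwil1). Spermatogonial markers had a median of 0.02 and 1 of 7 lower by adjusted p, with sums of 1513 to 2135 and 1726 to 2087 (most abundant, Uchl1). These 2 germ cell lists thus overlapped between genotypes, while the late spermatid sums did not. Of the somatic lists, 3 of 6 Leydig cell markers were called higher (median 0.69, most abundant Insl3), as were 6 of 8 macrophage markers (median 0.73, most abundant Lyz2), 2 of 4 tested myoid markers (median 0.27, most abundant Acta2), 2 of 5 endothelial markers (median 0.46, most abundant Vwf) and 0 of 8 Sertoli cell markers (median 0.19, most abundant Aard, with 1 higher by adjusted p in limma, edgeR and DESeq2 and 1 at an unadjusted p under 0.05). The summed Leydig count was 10124 to 17806 in WT and 14556 to 25454 in KI, that of macrophages 505 to 716 and 887 to 1156, and that of Sertoli cells 3342 to 5465 and 3847 to 5935. The myoid sum was 120 to 208 in WT and 191 to 236 in KI, and the endothelial sum 265 to 365 and 424 to 805. Over all genes tested, 6.13% were called higher. Scaled by library totals, 6 of 6 Leydig, 7 of 8 macrophage, 3 of 5 endothelial and 2 of 8 Sertoli cell markers were called higher and 1 of 7 round spermatid markers was lower by adjusted p, with all 7 late spermatid markers still called lower. DESeq2 called 5 of the 6 Leydig markers higher, as did the fit with the block. No marker was at 0 in every library. The part of these cell types in the results below was not tested. In such bulk libraries, fewer cells of a type and less RNA per cell cannot be told apart.

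Member genes ranged widely in level. Per kilobase of exon, WT means ran from a normalized count of 28.7 for Cep97, a cap protein that limits centriole length, to 3453 for Cep295nl, with a median of 279. After Cep295nl, named for its likeness to the N terminus of CEP295, came Cep63 at 1829, which encodes a protein that brings CEP152 to the centriole, and Haus1 at 1411, an augmin subunit. In KI the median was 202 per kilobase, and Cep85l moved from rank 17 of 52 in WT to rank 32. KI and WT were compared by limma on log2(normalized count + 1) across the 15389 genes that passed a filter on low counts, all 52 members among them. Calls required an adjusted p below 0.05 together with a 1.5-fold or greater change, and the added 1 slightly understates fold changes of low genes. Of the members, 4 were called lower in KI: Cep85l, Cep295nl, Cep112 and Cep57l1. That was 7.69% of the members, against 8.22% of all genes tested, a share near the background and so no result about the members as a group. None was called higher (0 by limma, edgeR and DESeq2, with 2 higher at an unadjusted p under 0.05), where 6.13% of all genes tested were. By adjusted p alone, 11 members were lower (21.2%, against 13.3% of all genes) and 1 was higher (1.92%, against 9.65%). The count of 11 varied when 1 library was left out, from 6 (without WT mouse 2 or KI mouse 3) to 13 (without KI mouse 4). Leaving out a library also leaves fewer mice for the test. The shares of all genes by adjusted p alone in these fits were not computed. The members' median log2 fold change was -0.09, and that of all genes tested 0.03. When values were scaled by library totals instead, the median of all genes moved to 0.25 and that of the members to 0.14, and relative to all genes the members' median was -0.11 under both scalings. With that scaling 2 members, Cep85l and Cep295nl, were called lower (5.13% of all genes) and 1, Haus7, higher (13.9%), and by adjusted p alone 5 were lower (7.92%) and 8 higher (32.6%).

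**Figure D1:**
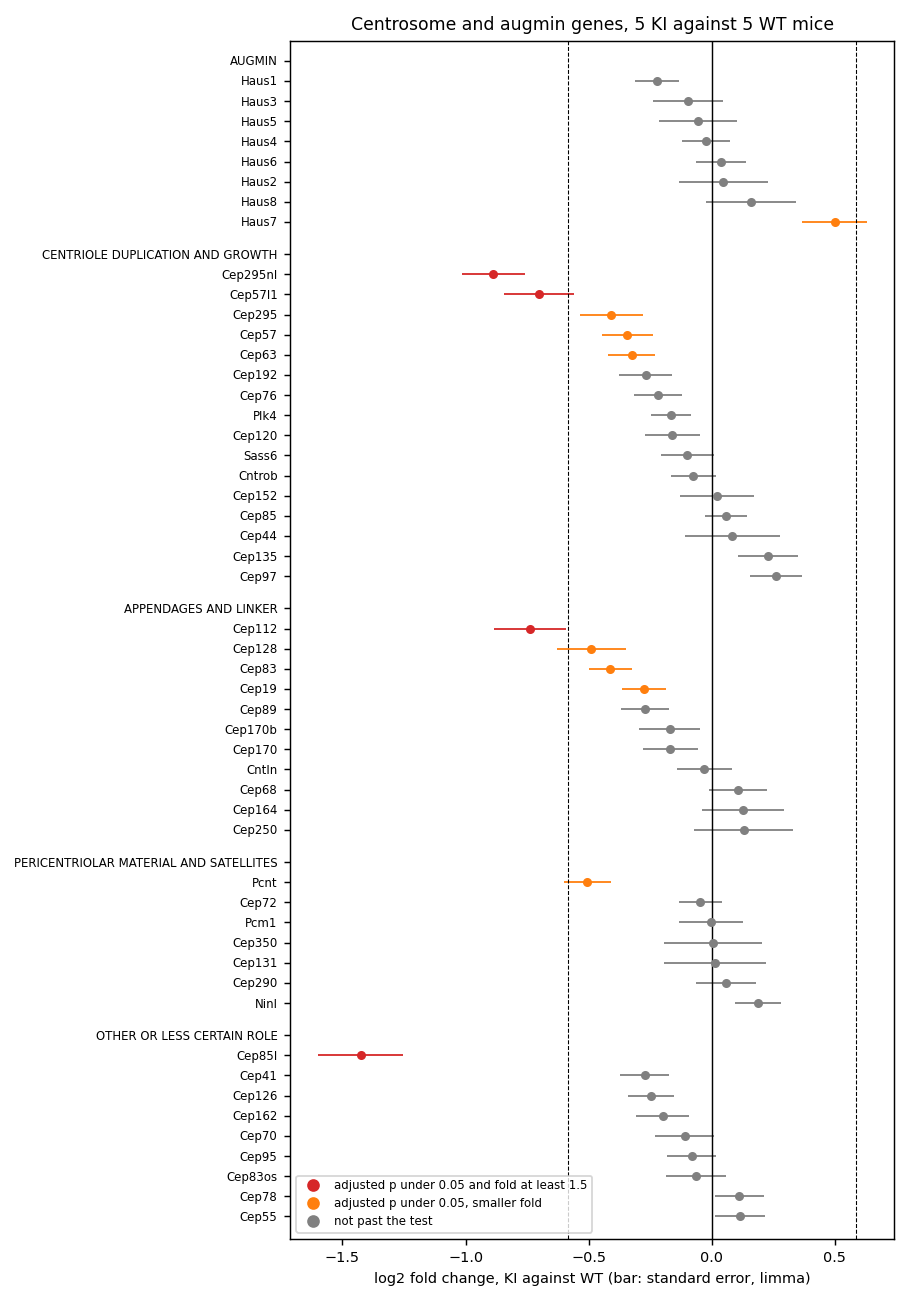
Log2 fold change of the members in KI against WT on the horizontal axis, with its limma standard error as a bar, grouped by role (5 mice per genotype; dashed lines at a fold of 1.5). Red points were called, orange points passed the adjusted p with a smaller fold, and the 4 red points all lie to the left, with Cep85l at -1.43 farthest out.

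Cep85l (chromosome 10, 53273443 to 53379884, minus strand), a centrosomal gene alike in sequence to the centriole duplication gene Cep85, showed the largest fold change among the members. Its normalized counts were 3990, 4576, 4498, 2213 and 2636 in WT mice 1 to 5 and 1331, 1310, 1231, 1332 and 1192 in KI mice 1 to 5. Every KI mouse was below every WT mouse, the KI values were close together and WT mice 4 and 5 were the lowest of WT. Cep85l fell by 1.43 on the log2 scale (SE 0.17, limma adjusted p = 2.88e-05), a fold of 2.69. Within libraries 1 to 3 the log2 fold change was -1.75 and within libraries 4 and 5 it was -0.94.

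Genes of centriole duplication and growth numbered 16, of which 2 were called lower, 5 were lower by adjusted p and 0 higher (limma, DESeq2 and edgeR alike; 1 higher at an unadjusted p under 0.05), with a median of -0.16 that was 0.07 when scaled by library totals. Over all genes tested, 8.22% were called lower and 13.3% were lower by adjusted p, and with so few members no result about this group is read from its counts. Cep295nl (chromosome 11, 118332360 to 118342535, minus strand) lies inside the span of Timp2 on the same strand, and its placement in this group rests on its symbol. It had normalized counts of 7132, 7772, 7706, 4898 and 6055 in WT mice 1 to 5 and of 3572, 3555, 3644, 4103 and 3073 in KI mice 1 to 5. No KI mouse reached the lowest WT mouse. Cep295nl fell by 0.89 on the log2 scale (SE 0.13, limma adjusted p = 1.28e-04), while Timp2, an inhibitor of metalloproteinases, was at 0.41 (adjusted p = 0.0276). Within libraries 1 to 3 Cep295nl was at -1.07 and within libraries 4 and 5 at -0.62. Cep57l1 (chromosome 10, 41718840 to 41809869, minus strand), alike to the pericentriolar gene Cep57, had 840, 886, 754, 563 and 550 in WT and 465, 465, 453, 443 and 349 in KI. The genotypes did not overlap, and the lowest value was that of KI mouse 5. Cep57l1 fell by 0.70 (SE 0.14, limma adjusted p = 0.00221). Scaled by library totals, it was at -0.47 (adjusted p = 0.0176), below the fold threshold. Its log2 fold change was -0.84 within libraries 1 to 3 and -0.50 within libraries 4 and 5.

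Below the fold threshold, 3 more genes of this group fell in KI by adjusted p. Cep295, which lets a new centriole grow and mature, fell by 0.41 (SE 0.13, limma adjusted p = 0.0327), from a WT mean of 1473 ± 257 to a KI mean of 1106 ± 163 (SD, n = 5 each), and its genotypes overlapped. Cep57, whose protein works with CEP63 to keep the centriole pair engaged, fell by 0.34 without overlap (SE 0.10, adjusted p = 0.0249). Cep63 itself had normalized counts of between 7601 and 10136 in WT (median 9385) and between 6805 and 7772 in KI (median 7123) and fell by 0.33 (SE 0.10, adjusted p = 0.0236), with the highest KI mouse above the lowest WT mouse. With library totals as the scaling, Cep295 was at -0.18 (limma adjusted p = 0.236), Cep57 at -0.11 (0.340) and Cep63 at -0.10 (0.324), so that none of these 3 passed. Within libraries 1 to 3 and within libraries 4 and 5, Cep295 was at -0.66 and -0.04, Cep63 at -0.48 and -0.10 and Cep57 at -0.41 and -0.24, and none of the 3 passed in the second set (adjusted p = 0.912, 0.730 and 0.358). The core assembly genes did not pass the test: Plk4, the kinase that starts duplication, was at -0.16 (adjusted p = 0.166), Sass6, the cartwheel protein, at -0.10 (0.568), and Cep152, which recruits PLK4, at 0.02 (0.945). Cep192, the other PLK4 recruiter, was at -0.27 (0.0871) and passed with the replicate number as a block (0.0487). Of the remaining genes, Cep76 was at -0.22, Cep120 at -0.16, Cntrob at -0.08, Cep85 at 0.06, Cep44 at 0.08 and Cep135 at 0.23, all with an adjusted p over 0.05. Cep97 stood apart as the only member whose KI mice were all above all WT mice. It had 271, 284, 261, 285 and 212 in WT and 324, 338, 309, 297 and 298 in KI. The log2 difference of 0.26 (SE 0.11) missed the threshold at an adjusted p of 0.0941 in limma and reached 0.0448 with the block. With scaling by library totals, which moved the median of all genes upwards, Cep97 was at 0.49 (limma adjusted p = 0.00393), Cep135 at 0.46 (0.00742) and Cep85 at 0.29 (0.0116), and all 3 passed.

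**Figure D2:**
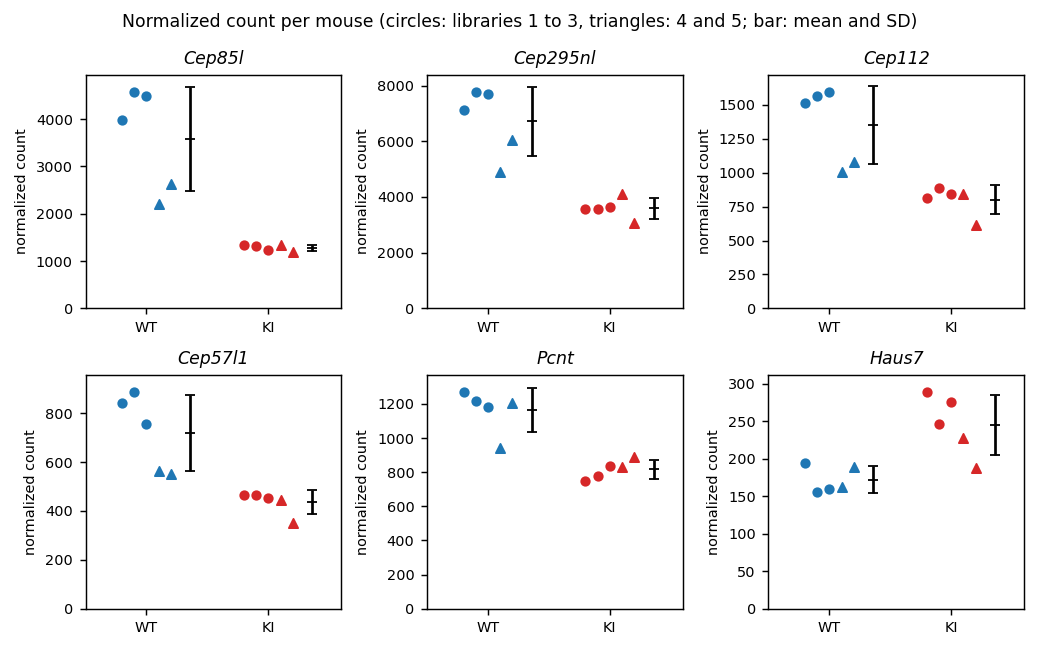
Normalized count of 6 members in each mouse (vertical axes start at 0; circles, libraries 1 to 3; triangles, libraries 4 and 5; black bars, mean and SD of 5 mice). The KI mice lie below all WT mice in Cep85l, Cep295nl, Cep112, Cep57l1 and Pcnt, while for Haus7 KI mouse 5 at 188 lies among the WT mice.

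Appendage and linker genes numbered 11, of which 1 was called lower, 4 were lower by adjusted p and 0 higher (limma, DESeq2 and edgeR alike; 0 higher at an unadjusted p under 0.05), with a median of -0.17 (0.06 when scaled by library totals), where 8.22% of all genes tested were called lower and 13.3% were lower by adjusted p. Cep112 (chromosome 11, 108425266 to 108860616, plus strand), a coiled-coil centrosome gene whose place in this group is uncertain, had normalized counts of 1509, 1567, 1594, 1002 and 1079 in WT mice 1 to 5 and of 814, 887, 841, 843 and 613 in KI mice 1 to 5. The genotypes did not overlap, with WT mice 4 and 5 nearest to KI. Cep112 fell by 0.74 (SE 0.15, limma adjusted p = 0.00177). Scaled by library totals, Cep112 was at -0.51 (adjusted p = 0.0129) and was not called. It was at -0.88 within libraries 1 to 3 and at -0.53 within libraries 4 and 5. Cep83, the innermost of the distal appendage proteins, had 3177, 3430, 3052, 2632 and 2959 in WT and 2388, 2247, 2190, 2380 and 2224 in KI. All KI mice were lower, and Cep83 fell by 0.41 (SE 0.09, adjusted p = 0.00291). Cep19, a centriolar gene of cilium assembly, fell by 0.28 without overlap (SE 0.09, adjusted p = 0.0345), from a WT mean of 921.5 ± 25.4 to a KI mean of 764 ± 73.1 (SD, n = 5 each). Cep128, a subdistal appendage gene, fell by 0.49 (SE 0.14, adjusted p = 0.0192) with overlap between genotypes, and Cep89, a distal appendage gene, was at -0.27 (0.0597, and 0.0274 with the block). When scaled by library totals, Cep128 was at -0.26 (0.0943), Cep83 at -0.18 (0.0757) and Cep19 at -0.05 (0.692), and none of these 3 passed. Within libraries 1 to 3 and within libraries 4 and 5, Cep83 was at -0.50 and -0.28 and Cep19 at -0.24 and -0.32, and neither passed in the second set (adjusted p = 0.236 and 0.237). Cep170 and Cep170b, paralogs of the subdistal appendage, were both at -0.17, and Cntln and Cep68 of the linker between centrioles were at -0.03 and 0.10, the latter at 0.33 (0.0407) scaled by library totals. Cep250, the main linker protein, was at 0.13 and the distal appendage gene Cep164 at 0.13, with SEs of 0.20 and 0.17.

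Pericentriolar material and satellite genes numbered 7, of which 0 were called by limma, DESeq2 or edgeR and 1 was lower by adjusted p (0 higher and 1 lower at an unadjusted p under 0.05), with a median of 0.00, where 13.3% of all genes tested were lower by adjusted p. That median was 0.23 when scaled by library totals, -0.16 within libraries 1 to 3 and 0.33 within libraries 4 and 5. Pcnt (chromosome 10, 76351254 to 76442913, minus strand), the scaffold pericentrin, had normalized counts of 1269, 1220, 1184, 941 and 1207 in WT mice 1 to 5 and of 751, 779, 834, 830 and 890 in KI mice 1 to 5. Its genotypes did not overlap, and WT mouse 4 lay closest to the highest KI mouse. Pcnt fell by 0.51 (SE 0.10, limma adjusted p = 0.00143), a fold of 1.42 just outside the threshold, where Cep57l1 at 1.63 was the nearest inside it. Its log2 fold change was -0.28 (adjusted p = 0.0279) scaled by library totals, -0.64 within libraries 1 to 3 and -0.31 within libraries 4 and 5. Pcm1, the satellite scaffold, was at -0.00 (SE 0.13), with satellite genes Cep72 at -0.05, Cep131 at 0.01 and Cep290 at 0.06. Cep350 was at 0.00 (SE 0.20) and Ninl, which anchors microtubules, at 0.19 (adjusted p = 0.169). Ninl was at 0.42 (0.00232) and passed when scaled by library totals.

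Augmin genes numbered 8, of which 0 were called by limma, DESeq2 or edgeR and 1 was higher by adjusted p (1 higher and 1 lower at an unadjusted p under 0.05), with a median of 0.01 (0.24 when scaled by library totals), where 9.65% of all genes tested were higher by adjusted p. Haus7 (chromosome X, 73437315 to 73459030, minus strand) had normalized counts of 194, 155, 159, 162 and 189 in WT mice 1 to 5 and of 288, 246, 275, 228 and 188 in KI mice 1 to 5. KI mice 1 to 4 were above all WT mice and KI mouse 5 was among them. Haus7 rose by 0.50 (SE 0.13, limma adjusted p = 0.0121), a fold of 1.41. It was at 0.67 within libraries 1 to 3 and at 0.24 within libraries 4 and 5, where it did not pass (adjusted p = 0.512). Of the subunits that did not pass, Haus1 was at -0.22 (0.0924), Haus3 at -0.10 (0.682), Haus5 at -0.06 (0.842) and Haus4 at -0.02 (0.896). Haus6 was at 0.04 (0.837), Haus2 at 0.05 (0.89) and Haus8 at 0.16 (0.59), the limma adjusted p standing in brackets. Scaled by library totals, Haus1, Haus3, Haus5 and Haus4 were above 0, at 0.01, 0.13, 0.17 and 0.21, and Haus7 was at 0.73. Haus1 passed within libraries 1 to 3 at -0.35 (limma adjusted p = 0.00263) but was at -0.03 (0.927) within libraries 4 and 5. It also passed without KI mouse 4 (0.0348). Haus5 was at 0.27 (0.170) within libraries 1 to 3 and at -0.54 (0.124) within libraries 4 and 5, opposite in sign.

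In the remaining group, with other or less certain roles, 10 members were tested and Cep85l alone was called or lower by adjusted p in limma. Over all genes tested, 8.22% were called lower and 13.3% were lower by adjusted p, so no result about this group is read from its count. Cep41, which serves tubulin modification in cilia, was at -0.27 (adjusted p = 0.0629, and 0.0107 with the block), and Cep126, a gene of cilium assembly, was at -0.25 (0.0676, and 0.0335 with the block). Cep162 was at -0.20, Cep70 at -0.11, Cep95 at -0.08, Cep83os at -0.07, Cep78 at 0.11 and Cep55, which works in the last step of cell division, at 0.12. Cep78 and Cep55 were both at 0.34 (0.0254 and 0.00987) and passed when scaled by library totals. With the replicate number as a block, 15 members were lower by adjusted p (17.4% of all genes) and 2 higher (14.7%), and the same 4 were called lower (8.73%). Across all groups, 8 members had every KI mouse below every WT mouse (15.4%, against 10.9% of all genes tested): Cep85l, Cep295nl, Cep112, Cep57l1, Pcnt, Cep83, Cep57 and Cep19. Cep97 was the 1 member with the reverse (1.92%, against 6.8%). This count was added after the data were seen.

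Where members have alike symbols or a shared start site, the ratio within a library compares them free of the scaling between libraries. This was computed for 5 pairs after the data were seen, by an exact permutation test, two-sided, over all 252 arrangements of the 10 mice (smallest p 0.00794) and adjustment over the 5 pairs. The log2 ratio of Cep85l to Cep85 was 0.32, 0.62, 0.72, -0.31 and 0.04 in WT mice 1 to 5 and -1.20, -1.18, -1.17, -1.13 and -1.35 in KI mice 1 to 5. It was lower in all 5 KI mice than in any WT mouse, by a mean difference of -1.48 (SE 0.19, exact permutation adjusted p = 0.0132), and Cep85 itself had 2566 to 3201 normalized counts in WT and 2777 to 3064 in KI. For Cep57l1 to Cep57 the mean difference was -0.36 (SE 0.08, exact permutation adjusted p = 0.0132), and for Cep295nl to Cep295 it was -0.48 (SE 0.16, exact permutation adjusted p = 0.0132). Both ratios had no overlap, so in each of these 3 pairs the like-named gene was lower in KI relative to its partner. The adjusted p holds only where all 10 mice are rearranged freely. All 3 of these genes were already called lower before the ratios were computed, so the ratios partly restate those falls and give no separate support. The labels do not say what the library numbers stand for. With same-numbered libraries taken as pairs, each of these 3 ratios was lower in KI in 5 of 5 pairs. Sign flips within such pairs cannot give an exact permutation p below 0.0625, so the paired test could not pass. For Cep170b to Cep170 the difference was -0.00 (SE 0.18, exact permutation adjusted p = 0.968), which does not show that the ratio was equal. Genes of alike sequence could share reads in the authors' counting, and this was not tested.

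**Figure D3:**
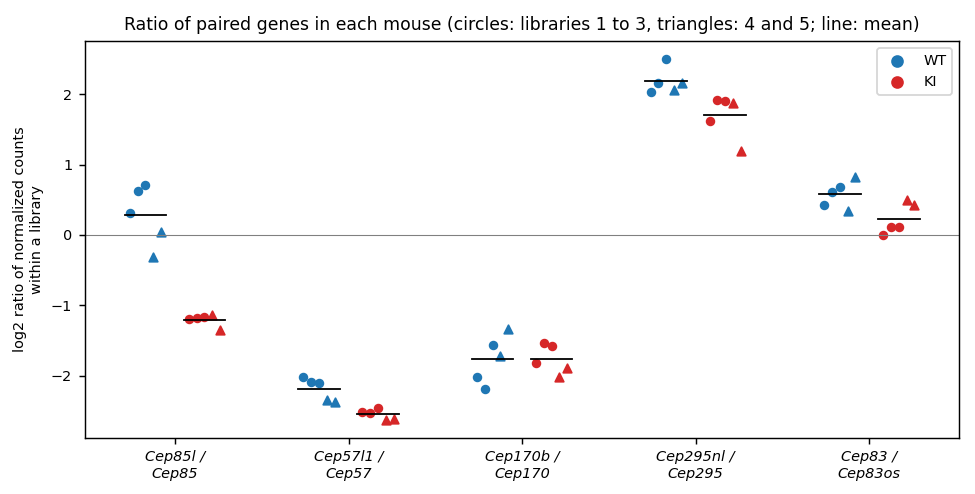
Log2 ratio of normalized counts of 2 genes within each mouse for 5 pairs (blue, WT; red, KI; circles, libraries 1 to 3; triangles, libraries 4 and 5; lines, mean of 5 mice). The ratios of Cep85l, Cep57l1 and Cep295nl to their partners are separated between genotypes, and those of Cep170b and Cep83 overlap.

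Cep83 and the non-coding Cep83os start 177 bases apart on opposite strands, inside the window printed above. The log2 ratio of Cep83 to Cep83os was lower in KI by a mean of -0.35 (SE 0.13), with overlap between genotypes and an exact permutation adjusted p of 0.0595. A wider split was seen at Haus2, whose start lies 24 bases from a start of Lrrc57 on the other strand. Lrrc57, a leucine-rich repeat gene that is not a member, had normalized counts of 3847, 3845, 4286, 2434 and 2389 in WT mice 1 to 5 and of 325, 323, 332, 306 and 226 in KI mice 1 to 5. It fell by 3.44 (SE 0.17, limma adjusted p = 5.89e-09). Haus2 had 241.6, 168.8, 236.7, 177.5 and 150.6 in WT and 249.5, 241.6, 220.3, 154.8 and 147.2 in KI, which overlap. The exons of these neighbours share 138 bases (4.29% of those of Haus2), and no source used here says that reads were counted by strand, so those in the shared bases cannot be told apart. Haus5 shares 56.5% of its exon bases with the annotated gene Gm21982, a gene on the same strand, so reads in the shared bases could belong to either and its value is uncertain. With genes on the opposite strand, Sass6 shares 24.5% of its exon bases (Gm42893), Cep250 11.1% (6430550D23Rik) and Cep295 10.9% (Gm16568). The limit given for Haus2 holds for these members too. All these shares are of the exons of the full annotation, which for some members are longer than the exons used for levels per kilobase.

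Fold changes of the members were computed within each library set. Their median log2 fold change was -0.21 within libraries 1 to 3 and 0.03 within libraries 4 and 5, and 22 of the 52 members were negative in the first set and positive in the second, against 3 the other way round. The median of all genes tested was 0.02 in both. An interaction of genotype with library set was fitted by limma after the data were seen. Its estimate was above 0 for 42 of the 52 members and for 50.6% of all genes tested. It passed an adjusted p of 0.05 for 3 members (5.77%), and for 0.247% of all genes tested. Cep128 had 5247, 5760, 5099, 4701 and 5336 in WT mice 1 to 5 and 3320, 3044, 3028, 4607 and 5023 in KI mice 1 to 5. KI mice 1 to 4 were below all WT mice, mouse 4 only just, and KI mouse 5 was among them, so that the log2 fold change was -0.78 within libraries 1 to 3 and -0.06 within libraries 4 and 5 (difference 0.72, limma adjusted p = 0.0415). Cep164 had 2415, 2679, 2304, 2237 and 2637 in WT and 2118, 2163, 2130, 3459 and 4024 in KI. Here KI mice 1 to 3 were just below all WT mice and KI mice 4 and 5 above them, and the log2 fold change was -0.20 in the first set and 0.62 in the second (difference 0.82, adjusted p = 0.0339). Cep85l differed in size but not in direction (difference 0.81, adjusted p = 0.0353). Within libraries 4 and 5 alone, Cep85l and Cep295nl were called lower (7.06% of all genes) and Cep164 higher (3.07%), and Cep112 at -0.53, Cep57l1 at -0.50 and Pcnt at -0.31 missed the adjusted p threshold (0.0669, 0.0818 and 0.248) with 2 mice per genotype. Within libraries 1 to 3 alone, 7 members were called lower, the 4 above with Cep128, Cep295 and Pcnt (8.69%), and Haus7 was called higher (7.15%). By adjusted p alone, 23 members were lower and 2 higher within libraries 1 to 3, and 2 lower and 1 higher within libraries 4 and 5. The shares of all genes tested by adjusted p alone were not computed within either set, so these counts have no background. No result about the members as a group is read from these counts. Median log2 fold changes of the marker lists in libraries 1 to 3 and in libraries 4 and 5 were -2.30 and -2.40 for late spermatids, -0.26 and -0.57 for round spermatids, -0.07 and 0.01 for spermatocytes and 0.25 and -0.27 for spermatogonia. For somatic cells they were 0.44 and -0.20 (Sertoli cells), 0.50 and 0.85 (Leydig cells), 0.77 and 0.66 (macrophages), 0.43 and 0.31 (myoid cells) and 0.57 and 0.30 (endothelial cells). The Sertoli, spermatogonial and spermatocyte medians thus had opposite signs in the 2 sets. The part of the preparation or of library quality in these differences was not tested.

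**Figure D4:**
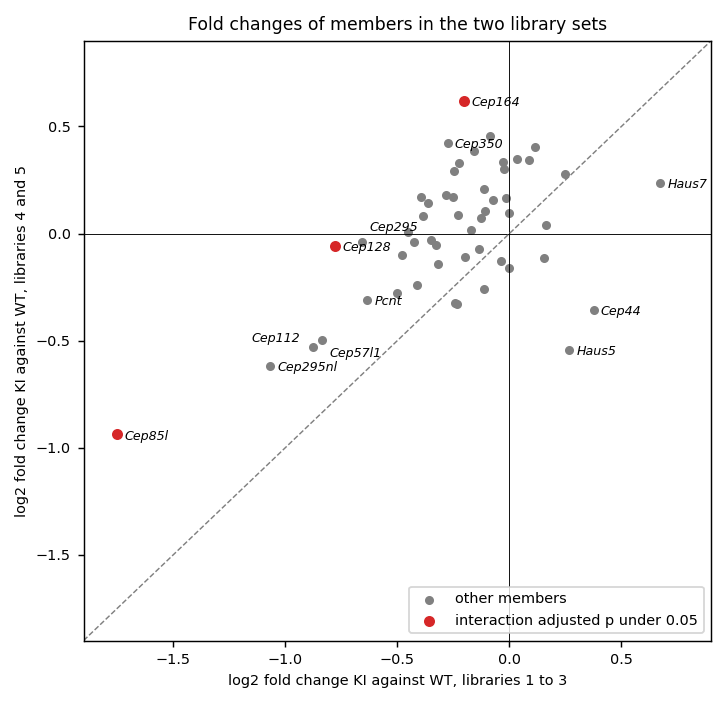
Log2 fold change of each member in KI against WT within libraries 1 to 3 (horizontal) and within libraries 4 and 5 (vertical), with the dashed line of equality and red points where the limma interaction passed. Of the 52 points, 42 lie above the line, and Cep164 lies at -0.20 and 0.62.

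Other genes of the same structures, from lists written with earlier results of these data known, were read from the same fit, in which 8.22% of all genes tested were called lower and 13.3% were lower by adjusted p. Of 11 genes of the gamma-tubulin ring and its anchors, 0 were called by limma, DESeq2 or edgeR, and 2 were lower by adjusted p, Tubgcp4 at -0.36 and Tubg1, gamma-tubulin itself, at -0.34 (0 higher and 2 lower at an unadjusted p under 0.05). Of 22 other centriole assembly genes, Deup1, the scaffold from which multiciliated cells amplify centrioles, was called lower at -0.69 (SE 0.09, limma adjusted p = 6.47e-05), Poc1b, which stabilises centrioles, was lower by adjusted p at -0.45 and Ofd1, of the distal centriole end, higher at 0.57. Deup1 had normalized counts of 3387, 3605, 3230, 2907 and 3129 in WT and of 1983, 1924, 1894, 2365 and 1950 in KI, without overlap. Of 20 other appendage, linker and satellite genes, 2 were called lower and 5 were lower by adjusted p, with Ofd1, which this list also holds, the 1 that was higher. Odf2, a protein of both the appendages and the outer dense fibres of the sperm tail, fell by 0.89 (SE 0.13, limma adjusted p = 1.15e-04). Sclt1, a distal appendage protein recruited by CEP83, fell by 0.85 (SE 0.10, adjusted p = 2.17e-05), with 2973, 3079, 2870, 2267 and 2607 in WT and 1557, 1367, 1425, 1665 and 1628 in KI. Among 10 mitotic spindle pole kinases and spindle assembly genes, 0 passed by limma, DESeq2 or edgeR, also at an unadjusted p under 0.05, and the median was 0.08. Scaled by library totals, 4 of these 10 were higher by adjusted p, as were 2 of the gamma-tubulin list (1 called), 5 of the centriole assembly list (1 called) and 6 of the appendage, linker and satellite list (2 called), where 32.6% of all genes tested were higher by adjusted p and 13.9% called. In the other direction, Deup1 at -0.46 was then no longer called, and Tubgcp4 at -0.14 and Tubg1 at -0.11 no longer passed. With this scaling the appendage, linker and satellite list had 2 genes called lower and 4 lower by adjusted p.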

How the data were processed

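The deposited values are a normalized signal per gene and library. Per the methods and labels, the authors aligned reads to mm10 with STAR, counted them with the Partek E/M model on RefSeq genes and used DESeq2, and no tool versions are given in the sources used here. Within each library the values were whole multiples of 1 read (100% of those under 5000 reads, tolerance 0.1), and that value differed from DESeq2's size factor of the recovered reads by at most 4.25e-06%. Every column was assigned to a library (0 not assigned). Starts and ends of genes are those of the table. Its start equalled RefSeq's for 25 of the 52 members. Its end equalled RefSeq's for 3 and lay 1 base past it for 24, and the other starts and ends differed. Exon lengths for levels per kilobase came from GENCODE's basic annotation, shares of overlapping exon bases from its full annotation, and promoters from RefSeq (GRCm38.p6).

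KI and WT were compared by limma (3.58.1, R 4.3.3) with a variance trend on log2(value + 1), over genes passing edgeR's filterByExpr, with Benjamini-Hochberg adjustment over all of them. The fits were tested on simulated data. Alternatives were edgeR (4.0.16) and DESeq2 (1.42.0) on the recovered reads, other scalings, filters, pseudocounts and thresholds, a replicate block, a term for library set, each set alone, and each library left out. The interaction, the within-library ratios and the counts without overlap were chosen after seeing the data. Members and lists were chosen with earlier results of these data known, so no list was tested as a set. Named are all members but 1, which is not reported here, with values per mouse for called members and Ddx25, at least a fold and adjusted p for each Haus gene, the 3 members highest per kilobase, and up to 4 called genes of each other list. Lrrc57 and Timp2, and the values per mouse of Pcnt, Cep83, Cep97, Cep128, Cep164, Haus2, Haus7, Deup1 and Sclt1, were picked after they were seen.

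Replicates are separate mice per the study's methods, and no library duplicated another (chi-square per degree of freedom 2.66 to 46.7). After removal of genotype means, same-numbered libraries correlated at 0.306, 0.105, 0.280, 0.216 and 0.462 (other numbers of the same library set, mean 0.134). Number 2 was below that mean. The numbers were treated as pairing the libraries in the replicate block and the sign flips, and the main fit did not use them. The labels do not say what the number stands for.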

Additional observations from a re-analysis of the deposited data

Results flagged for a closer look

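In groups of 5 mice, a sample was singled out when its gap to the nearest of the others exceeded 0.71 of the group's range, which chance alone does in about 1 in 20 groups. Of the 106 groups examined, 4 had such a sample. KI mouse 5 was the lowest of KI for Cep112 (613, with the nearest at 814) and Cep57l1 (349, with the nearest at 443) and the highest for Ninl (1272, with the nearest at 1043). WT mouse 4 was the lowest of WT for Pcnt (941, with the nearest at 1184).

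The effect of genotype differed between library sets for 3 members by limma's interaction test, adjusted over all genes tested. The log2 fold change in libraries 4 and 5 minus that in libraries 1 to 3 was 0.72 for Cep128, 0.82 for Cep164 and 0.81 for Cep85l. Within libraries 4 and 5 the log2 fold change was -0.06 for Cep128, 0.62 for Cep164 and -0.94 for Cep85l, so that of these 3 Cep164 alone was above WT there.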

How the results depend on the processing

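Cep85l and Cep295nl kept their direction and an adjusted p under 0.05 in all 24 alternatives run on single genes. Cep112, Cep57l1 and Pcnt kept theirs in 23, as did Haus7, each missing the threshold within libraries 4 and 5 alone. By adjusted p alone, Cep83 still passed in 22, Cep128 in 19, Cep295 in 17, Cep57 in 16, Cep63 in 15 and Cep19 in 14. With the replicate number as a block, 4 members were called lower and 0 higher, as without it, and by adjusted p alone the block added Cep41, Cep89, Cep126 and Cep192 lower and Cep97 higher. The same 4 members were called by edgeR and DESeq2.

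Members called lower numbered 2 with library totals, 7 within libraries 1 to 3, 2 within libraries 4 and 5, 1 at a fold of at least 2 and 11 with no fold threshold. Leaving out each library in turn gave 4 to 5. Members called higher numbered 1 with library totals, upper quartile, libraries 1 to 3, libraries 4 and 5 (Cep164, the others being Haus7) or no fold threshold, and 0 to 1 when each library was left out (1, Haus7, without KI mouse 5, when Cep128 also became called lower). Of all genes, those called higher numbered 2145 with library totals, 549 with a mean of at least 50, 472 within libraries 4 and 5, 605 at an adjusted p under 0.01, 367 at a fold of at least 2 and 1485 with no fold threshold. Those called lower numbered 789 with library totals, 602 at a fold of at least 2 and 2044 with no fold threshold. In the other centrosome lists 3 genes were called higher with library totals. The members' median log2 fold change was 0.14 with library totals, -0.21 within libraries 1 to 3 and 0.027 within libraries 4 and 5, so that its sign turned in the first and the last, and it was 0.0045 with upper quartile, also above 0. The cause was not tested.

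Libraries 4 and 5 alone have 2 mice per genotype, which limits what they can call. Low genes such as Haus8 are measured with less precision than Cep63 or Cep295nl.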

Other observations

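Genes that join the sperm head to the tail, or that form the manchette around the spermatid nucleus, work beside the centrioles and were read from the same fit. Of 12 such genes, 4 were called lower in KI, 5 were lower by adjusted p and 0 were higher, by limma, edgeR and DESeq2 alike (0 higher at an unadjusted p under 0.05), where 8.22% of all genes tested were called lower and 13.3% were lower by adjusted p in limma. Scaled by library totals, 4 were called lower and 2 were higher by adjusted p. Odf1, of the outer dense fibres and the coupling apparatus, fell by 2.55 on the log2 scale (SE 0.14, limma adjusted p = 1.39e-08). Its normalized counts were 21213 to 30233 in WT mice and 3196 to 4907 in KI mice, which do not overlap. Pmfbp1, a protein of the coupling apparatus, fell by 1.24, Spata6, needed to form the connecting piece, by 1.06 and Hook1, a manchette protein, by 0.89, each with all KI mice below all WT mice. Several of these genes are expressed in late spermatids, whose 7 markers were all called lower, and the part of those cells in the values was not tested.

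On chromosome 9, which carries 7 members, more than any other chromosome, 0 were called by limma and 3 were lower by adjusted p (8.22% of all genes tested were called lower and 13.3% were lower by adjusted p), and their median log2 fold change was -0.25, a count made after the data were seen. That median was -0.02 when scaled by library totals, -0.39 within libraries 1 to 3 and -0.07 within libraries 4 and 5.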
